A study of Danio rerio with 11 samples.

Results

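Notch pathway genes were measured in wild-type and spt zebrafish embryos on Affymetrix Zebrafish Genome Arrays, 1-colour arrays on which a gene is read by 1 or more probe sets. They were chosen by gene symbol. The rule took dla, dlb and dll4, and every symbol that begins with notch, jag, her and a digit, hey, mib, numb, rbpj, adam10, psen, ncstn, mfng, rfng or maml, and it dropped the segmentation clock genes her1 and her7. This gave 44 of the 15502 probe sets tested. Of these, 40 read Notch pathway genes and 4 read genes whose symbols only begin alike, namely jagn1b (2 probe sets), mibp and mibp2, which are described last. The 40 probe sets are 6 of ligands, 7 of receptors, 2 of mib1, 2 of rfng, 4 of proteases and their subunits and 19 of her and hey genes. The 19 were grouped by symbol, and whether each gene depends on Notch was not tested. The 40 carry 27 symbols with a probe set of their own, and 2 of the 40 are shared by several copies of her4. The names dll4, numb, rbpj, ncstn, mfng and maml matched no probe set and were not analysed here.

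In Notch signalling, a Delta or Jagged ligand on one cell binds a Notch receptor on its neighbour. The E3 ubiquitin ligase Mib1 drives uptake of the ligand, and ADAM10 and the γ-secretase complex then cut the receptor. The freed intracellular part of the receptor enters the nucleus and switches on repressor genes, among them members of the her and hey families. In the vertebrate embryo the pathway spaces out neurons, times and patterns somites and takes part in the choice between artery and vein and in blood formation.

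The study asked whether tbx16, a T-box transcription factor, regulates major signalling pathways, Delta-Notch among them, during mesoderm development. Its own test of whole gene sets reported no significant change of Delta-Notch in spt at either stage. All embryos came from a cross of carriers of the b104 allele of spt/tbx16 with a line in which the pax2a promoter drives GFP. Wild-type embryos were spt+/+ and spt embryos were b104/b104. For the 4/5-somite stage, few pax2a-GFP-positive cells were sorted as intermediate mesoderm from pooled embryos without heads. Their amplified RNA went onto arrays, of which 2 of wild type and 3 of spt were analysed here. For the 21-somite stage, unsorted middle tail tissue of pooled embryos, without the tail tip, gave unamplified RNA for 3 arrays of each genotype. This tissue also contains intermediate mesoderm, notochord and spinal cord. Replicate extractions came from separate clutches. In pooled tissue, fewer cells of a type and less RNA per cell cannot be told apart.

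Signals are MAS5 intensities, normalized by quantiles within each stage, so that signals of the 2 stages are set side by side only where joint normalization is stated. A signal under 100 is called low here, and each array had 69.6% (intermediate mesoderm) or 83.5% (tail) of its probe sets at or above it. Of the 40 Notch probe sets, 28 reached 100 on both arrays of wild-type intermediate mesoderm (64.3% of all probe sets did), 25 on all 3 of spt intermediate mesoderm (59.7%), and 36 on all 3 arrays of wild-type tail (79.5%) and of spt tail (80.4%). The targeted gene tbx16 had tail signals of 1485, 958 and 1296 in wild type and 424, 409 and 445 in spt on its brighter probe set and fell by 1.49 on the log2 scale (limma adjusted p = 0.0065), its other probe set gave -0.75 (adjusted p = 0.108), and in intermediate mesoderm the brighter one read 78.6 to 103 over both genotypes. The sorted wild-type cells carried the kidney gene hnf1bb (5290.3 and 5660.1) and the blood gene gata1a (2496 and 2922). Of 9 pronephros genes of a marker list, however, 3 were under 100 on both arrays, and the blood genes alas2 (192 and 198) and klf1 (162 and 159) were dim. The neural gene sox3 was bright too (5946 and 4290). The gene behind the sort, pax2a, read 268 and 267 in wild type and 1012, 1293 and 517 in spt, where all arrays were higher (log2 fold change 1.66, adjusted p = 0.624). The endothelial gene kdrl differed widely between the wild-type arrays of these cells (46.8 and 484).

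In spt intermediate mesoderm hey2 had the largest difference of the 40 probe sets, with signals of 622 or more in wild type and under 100 in spt, and the her4.2 probe sets were higher. The ligands dla and jag1a were lower on all 3 spt arrays than on both wild-type arrays. None of these passed at an adjusted p under 0.05 over all 15502 probe sets. All adjusted p-values are from limma with Benjamini-Hochberg adjustment. At this threshold 0 of the 40 passed, as did 0% of all probe sets, with a smallest adjusted p of 0.131 among the 40 and 0.0634 on the whole array. At an unadjusted p under 0.05 limma called 6 of 40, or 15%, beside 7.2% of all probe sets, 4 of them higher in spt (3.57% of all) and 2 lower (3.63%). The 4 higher ones are all her4 probe sets, which are not independent readings, and 2 of these were under 100 on every array of this stage. The 2 genotypes did not overlap for 14 of 40, or 35%, beside 26.8% of all, 7 of them higher (12.4% of all) and 7 lower (14.5%). The median log2 fold change of the 40 was -0.02 beside -0.01 for all probe sets, and 18 of 40 lay above 0 (49.1% of all).

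**Figure D1:**
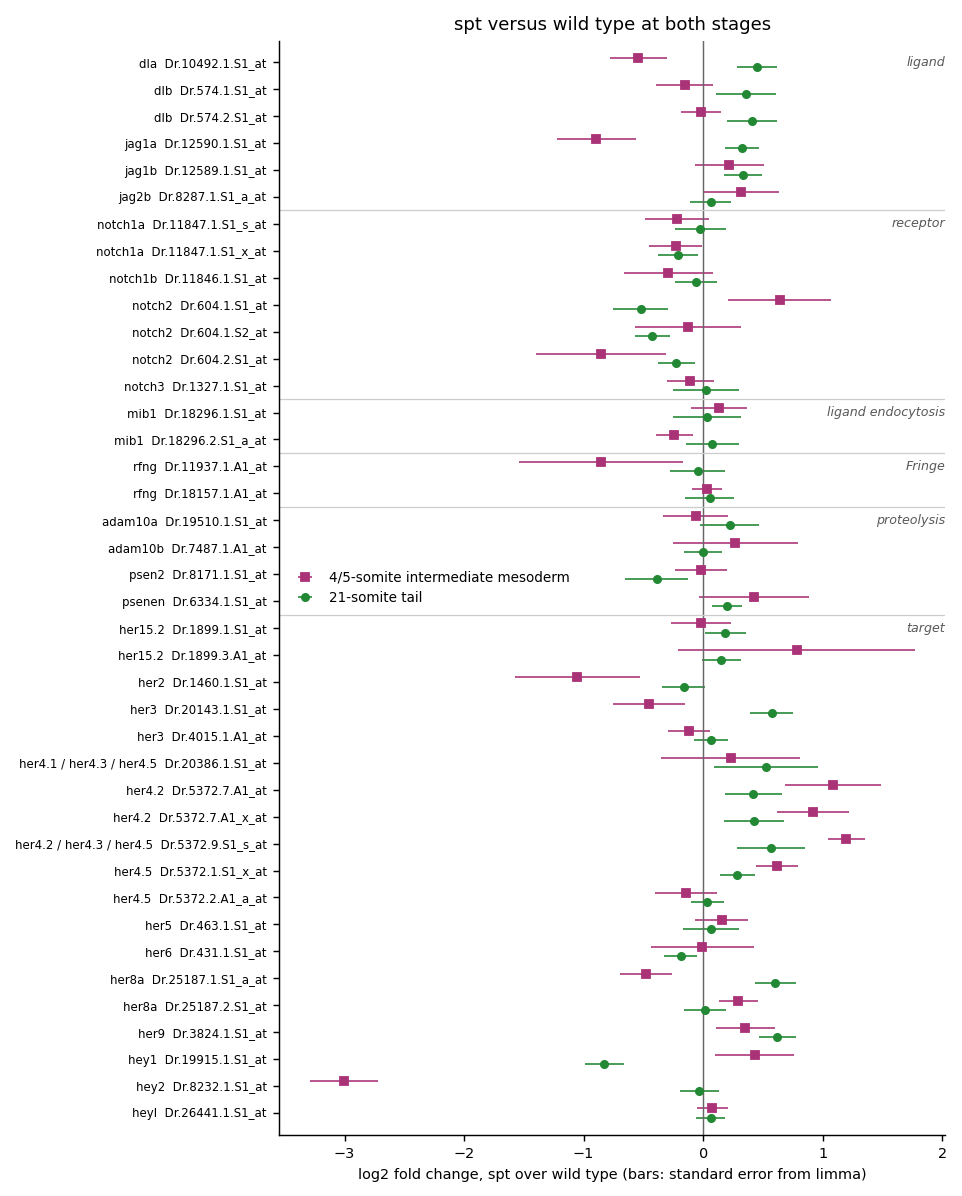
Log2 fold change of spt over wild type for the 40 Notch pathway probe sets, grouped by role, with squares for the 4/5-somite intermediate mesoderm, circles for the 21-somite tail and bars for the standard error from limma. The square of hey2 stands apart at -3.01, while its circle lies at -0.03 and the circle of hey1 at -0.83. The label target marks all her and hey genes, by symbol only.

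hey2 encodes a hairy-related repressor, known in zebrafish from the gridlock mutant, in which the aorta does not form properly. It had signals of 951 and 622 on the wild-type arrays of intermediate mesoderm and of 91.1, 90.4 and 65.7 on the spt arrays. All 3 spt arrays were low and lay far below both wild-type arrays. The log2 fold change was -3.01 (SE 0.29, adjusted p = 0.131), with a 95% confidence interval of -3.74 to -2.28. Since the spt signals were low, this value depended on the constant added before the log, from -3.22 with 1 to -2.52 with 64. With the spread estimated over all 4 groups in 1 fit, the same value had an adjusted p of 1.6e-04 (SE 0.24). Markers of blood, and pax2a in the other direction, moved with it. All 9 blood genes of a marker list had lower signals in spt intermediate mesoderm, 7 of them at an unadjusted p under 0.05 and 0 at the adjusted threshold, and their summed signal was 18617 to 18826 in wild type and 1344 to 2034 in spt. The study had excluded a further wild-type array of this stage and reported far lower red blood cell markers on it. The contrasts of the blood genes and of hey2 are therefore against the wild-type arrays that were kept. Of 8 endothelial genes 7 were lower, 3 at an unadjusted p under 0.05 and 0 at the adjusted threshold, with sums of 9411 to 12773 in wild type and 5242 to 7546 in spt. The wild-type sums came mostly from lmo2 (6428 and 7591, against 5814, 4687 and 4562 in spt) and tal1. These were 2 of the 3 calls, and the other was flt4 (143 and 185 in wild type, 92.4, 104 and 95.7 in spt). The genotypes overlapped for kdrl, tie1, tek, efnb2a and ephb4a. The hemangioblast gene tal1 read 2203 and 3502 in wild type and 763, 17.7 and 18.8 in spt. In spt 1 of the 9 blood genes and 0 of the 8 endothelial genes were under 100 on all 3 arrays. The part of these cells and of the sort in the hey2 value was not tested.

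Ligands of the rule in the intermediate mesoderm gave 2 values above 0 and 4 below, with a median of -0.08. The Delta genes dlc and dld, which the rule did not take, gave 0.09 (SE 0.16) and 0.42 (SE 0.33). jag1a, a Jagged ligand, had signals of 508 and 634 in wild type and of 232, 315 and 362 in spt. Every spt array was below both wild-type arrays, but the spt arrays also spread widely among themselves. The log2 fold change was -0.89 (SE 0.33, adjusted p = 0.684). dla, a Delta ligand of neural precursors and presomitic mesoderm, read 370.2 and 384 in wild type and 249, 268 and 246 in spt. Both groups were tight and did not overlap, and the log2 fold change was -0.54 (SE 0.24, adjusted p = 0.688). dlb, another Delta of neural precursors, was low on all 5 arrays of its main probe set, the one brighter in tail (76.4 and 53.9 in wild type, 57.2, 41.6 and 73.5 in spt). jag1b had signals of 105 and 183 in wild type and of 176, 136 and 187 in spt, with overlap. jag2b read 123 and 122 in wild type and 241, 126 and 128 in spt, where 1 spt array stood above 4 nearly equal ones. Its log2 fold change of 0.32 (SE 0.31, adjusted p = 0.764) comes mostly from that array.

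Notch receptors were at modest signals in the sorted cells, and 6 of their 7 probe sets had a lower mean in spt, with a median log2 fold change of -0.22 and none passing even at an unadjusted p under 0.05. notch1a had signals of 189 and 139 in wild type and 174, 142 and 103 in spt on the probe set with the higher mean here, and the genotypes overlapped. notch1b read 202 and 230.1 in wild type and 131, 282 and 139 in spt, with 1 spt array above both wild-type arrays and the other two below. notch3 read 165 and 133 in wild type and 161, 128 and 123 in spt. The 3 probe sets of notch2 did not point the same way. The first, which is brightest in tail, had 591 and 287 in wild type and 489, 282 and 386 in spt. The second had 652 and 663 in wild type and 267, 703 and 239 in spt, and the third 88.5 and 91.1 in wild type and 109, 106 and 278 in spt. Their log2 fold changes were -0.13, -0.85 and 0.64, with standard errors of 0.43 to 0.54, so that no direction can be given for notch2 at this stage.

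Among the genes that handle ligand and receptor, values at the 4/5-somite stage were small or widely spread. The 2 probe sets of mib1 gave log2 fold changes of 0.13 and -0.24, and one probe set of the Fringe glycosyltransferase rfng, which modifies the receptor, was under 100 on every array. The other gave -0.85, with signals of 562 and 547 in wild type and 482, 471 and 113 in spt, where a single spt array was low and the other two were near wild type. The ADAM proteases adam10a and adam10b and the γ-secretase genes psen2 and psenen lay between -0.06 and 0.43, with standard errors of 0.22 to 0.52. psenen differed more within wild type (371 and 873) than between genotypes.

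The her4 genes are hairy-related targets of Notch in neural precursors of zebrafish. On the RefSeq assembly GRCz12tu her4.2, her4.1, her4.3, her4.4 and her4.5 follow each other without another protein-coding gene between them, next to her12, and 2 of the 6 her4 probe sets are annotated to 3 copies each, so the 6 are not independent readings and do not separate the copies. Of the 6, 5 had a higher mean in spt intermediate mesoderm. The first her4.2 probe set had signals of 85.7 and 62 in wild type and 234, 97.4 and 221 in spt, with a log2 fold change of 1.08 (SE 0.40, adjusted p = 0.684). The second her4.2 probe set read 73.4 and 57.9 in wild type and 165, 90 and 173 in spt, with 0.92 (SE 0.30, adjusted p = 0.675). On both, the wild-type arrays were low and 2 of 3 spt arrays were above 100. The remaining her4 probe sets were under 100 on every array of this stage, and no fold was read from them. The one shared by her4.2, her4.3 and her4.5 had 25.1 and 26.1 in wild type and 87.7, 64.9 and 87.8 in spt (adjusted p = 0.214). The her4.5 probe set that is the brighter one in tail had 44.7 and 39.9 in wild type and 88.5, 58.6 and 75.5 in spt. In both of these the genotypes did not overlap. The one shared by her4.1, her4.3 and her4.5 read 59.3 and 8.82 in wild type and 21.9, 66.1 and 25.9 in spt, and the other her4.5 probe set 62.2 and 92.5 and 86.4, 72.2 and 48.4, with overlap in each. The 4 her4 probe sets without overlap are the 4 higher calls at an unadjusted p under 0.05 given above. Of 21 neural genes of a marker list 10 were higher and 11 lower in spt at this stage, and their summed signal was 10366 to 12115 in wild type and 7758 to 11534 in spt.

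**Figure D2:**
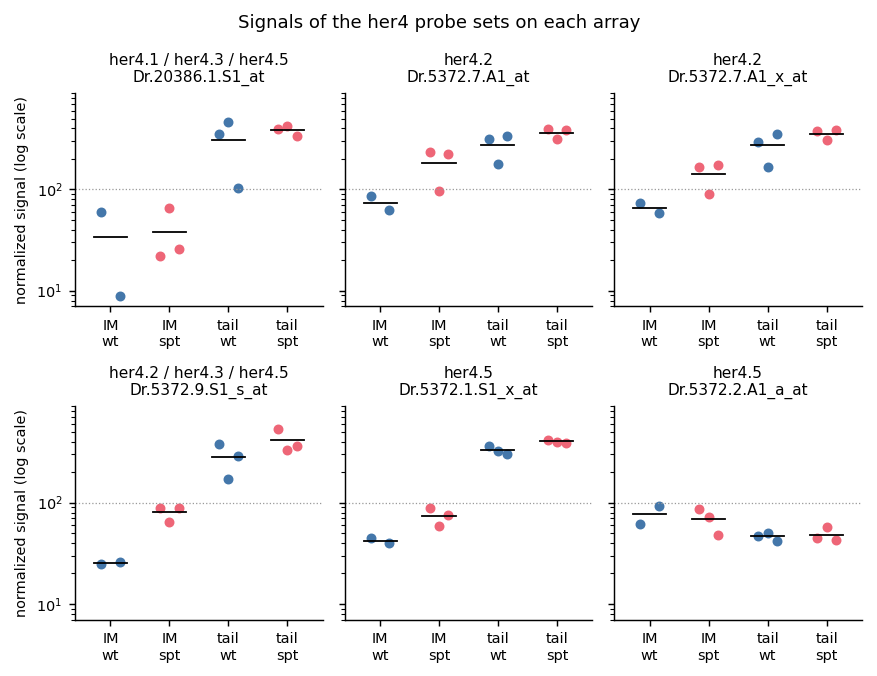
Normalized signals of the 6 her4 probe sets on each array (log axis, 1 point per array, bar at the group mean, dotted line at 100) for intermediate mesoderm (IM) and tail of wild-type (wt) and spt embryos. In IM only the 2 her4.2 probe sets reach 100 in spt, and in tail 5 of the 6 probe sets lie above 100 on every array.

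Of the other her and hey genes at the 4/5-somite stage, her8a, which in zebrafish takes part in Notch signalling during neurogenesis, had signals of 231 and 221 in wild type and 137, 190.2 and 149.9 in spt on its brighter probe set. All spt arrays were lower, with a log2 fold change of -0.48 (SE 0.21, adjusted p = 0.688). her2 read 481 and 175 in wild type and 83.2, 146 and 186 in spt and overlapped. hey1 had 119.6 and 94.2 in wild type and 106, 134 and 228 in spt, with the highest signal on 1 spt array and overlap between the others. her9 read 217 and 224 in wild type and 296, 241 and 327 in spt, without overlap, and gave 0.35 (SE 0.25, adjusted p = 0.713). The her3 probe set that is the brighter one in tail read 164 and 169 in wild type and 86.7, 176 and 104 in spt, where 1 spt array was above both wild-type arrays. her3, her5, her6, her9 and her15.2 gave log2 fold changes from -0.45 to 0.78 over their 7 probe sets, heyl was under 100 on every array, and the highest came from a her15.2 probe set with signals of 913 and 138 in wild type and 269.8, 833 and 1123 in spt, that is, with the widest spread of the pathway.

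In the 21-somite tail of spt embryos hey1 had the smallest p of the 40 probe sets, with a signal 1.81 times lower than in wild type. The neural repressors her9, her8a and her3 and the ligands dla and jag1a had higher signals in spt, and notch2 lower ones. None passed the adjusted threshold. limma called 0 of the 40 beside 0.69% of all probe sets (107), or 0.181% higher and 0.51% lower, and the smallest adjusted p of the 40 was 0.0747. At an unadjusted p under 0.05 it called 8 of 40, or 20%, beside 7.44% of all, 5 higher in spt (3.91% of all) and 3 lower (3.54%). The genotypes did not overlap for 10 of 40, or 25%, beside 12.2% of all, of which 8 were higher (6.01% of all) and 2 lower (6.2%). The median log2 fold change was 0.06 beside 0.00 for all probe sets, and 27 of 40 lay above 0 (50.1% of all).

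**Figure D3:**
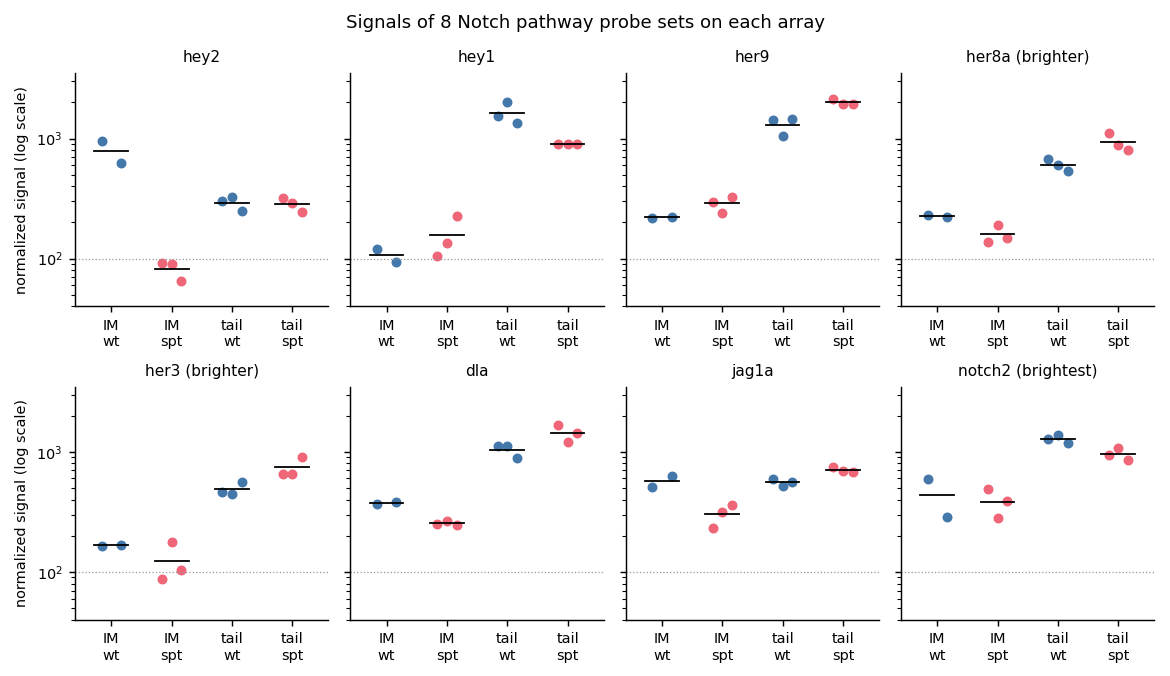
Normalized signals of 8 Notch pathway probe sets on each array (log axis, 1 point per array, bar at the group mean, dotted line at 100), in intermediate mesoderm (IM) and tail of wild-type (wt) and spt embryos. hey2 differs between genotypes in IM, where 2 wild-type points at 951 and 622 lie above 3 spt points under 100, and hey1 in tail, where the 3 spt points lie at 893 to 906.

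hey1 encodes a hairy-related repressor that is expressed in somites of zebrafish. Its signals in tail were 1554, 2001 and 1347 in wild type and 906, 905 and 893 in spt. The spt arrays were almost equal and all lay under the lowest wild-type array. The log2 fold change was -0.83 (SE 0.16, adjusted p = 0.0747), with a 95% confidence interval of -1.20 to -0.46. With the spread taken from all 4 groups in 1 fit, its adjusted p was 0.815 (SE 0.27). Paraxial mesoderm and muscle genes moved with it. Of 12 such genes of a marker list 11 were lower in spt tail, 6 of them fell at the adjusted threshold, the median was -0.95, and their summed signal was 15259 to 19203 in wild type and 8133 to 9097 in spt. All 12 were above 100 on every tail array. Blood genes were lower in spt tail as well. This held for all 9 of the blood list, 6 of them at the adjusted threshold, with a median of -1.75. Their summed signal was 9306 to 14371 in wild type and 1496 to 1561 in spt. The part of these tissues in the hey1 value was not tested.

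her9 and her3 encode repressors that, in zebrafish, keep stretches of the neural plate free of neurons. her9 had signals of 1418, 1044 and 1465 in wild-type tail and 2129.8, 1935 and 1935 in spt tail, so all spt arrays were higher, and the log2 fold change was 0.62 (SE 0.15, adjusted p = 0.19). her3 read 467, 442 and 559 in wild type and 659.5, 657 and 907 in spt on its brighter probe set, again with no overlap, and gave 0.57 (SE 0.18, adjusted p = 0.365). Its dimmer probe set gave 0.07 (0.14 SE) and overlapped. her8a read 672, 597 and 539 in wild type and 1116, 877 and 797 in spt on its brighter probe set, without overlap, with a log2 fold change of 0.60 (SE 0.17, adjusted p = 0.286). Its dimmer probe set was under 100 on every tail array. Among the her4 probe sets, the brighter her4.5 probe set separated the genotypes, with 359.7, 322 and 302 in wild type and 420.1, 399 and 388 in spt and a log2 fold change of 0.29 (SE 0.15, adjusted p = 0.797). The probe set shared by her4.1, her4.3 and her4.5 overlapped, with 351, 461 and 104 in wild type and 390.3, 422 and 336 in spt, where 1 wild-type array was low and the other two were like spt. her4.2 also overlapped (316, 178 and 335 in wild type and 391, 312 and 388 in spt on the first probe set, 293, 167 and 355 and 373, 308 and 387 on the second), as did the probe set shared by her4.2, her4.3 and her4.5 (378, 173 and 288 and 537, 333 and 365). In these 3 the same wild-type array was the lowest. The dimmer her4.5 probe set was low, with 47.1, 50.5 and 42.3 in wild type and 44.4, 58.1 and 42.9 in spt.

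All 6 ligand probe sets of the rule had a higher mean in spt tail, with a median log2 fold change of 0.35, 2 of them at an unadjusted p under 0.05. The rule did not take the Delta genes dlc and dld, and both were lower in spt tail. limma gave -0.97 (SE 0.20, adjusted p = 0.098) for dlc and -0.31 (SE 0.24, adjusted p = 0.997) for dld. dla read 1118, 1129 and 891 in wild type and 1674, 1213 and 1431 in spt. Its lowest spt array was just above its highest wild-type array, and the log2 fold change was 0.45 (SE 0.17, adjusted p = 0.507). jag1a had signals of 593, 522 and 561 in wild type and 748, 688 and 675 in spt, without overlap, and a log2 fold change of 0.33 (SE 0.14, adjusted p = 0.666). jag1b read 322, 247 and 287 in wild type and 393, 347 and 348 in spt, also without overlap, with 0.34 (SE 0.16, adjusted p = 0.718). dlb (585, 653 and 333 in wild type, 556, 719 and 689 in spt) overlapped, and jag2b (836, 937 and 1213 in wild type, 945, 1014 and 1135 in spt) had an interval of -0.32 to 0.45 on the log2 scale.

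Markers of several cell types were higher in the spt tail beside these ligand and her values. Of 21 neural genes of a marker list 18 were higher, 11 of them at an unadjusted p under 0.05 and 0 at the adjusted threshold, with a median log2 fold change of 0.31. Their summed signal was 15174 to 16728 in wild type and 20737 to 22161 in spt, and all 21 were above 100 on every tail array. Of 9 pronephros genes 8 were higher, 5 at an unadjusted p under 0.05, and 1 of them rose at the adjusted threshold, with sums of 1576 to 2386 in wild type and 3249 to 3789 in spt. Of 9 notochord genes 8 were higher, 2 at an unadjusted p under 0.05, with overlapping sums of 11193 to 13108 in wild type and 12893 to 14620 in spt. Of 9 epidermis genes 8 were higher, 3 at an unadjusted p under 0.05, also with overlapping sums of 18278 to 26499 in wild type and 23445 to 32708 in spt. The part of these tissues in the values of the ligands, her3, her4, her8a and her9 was not tested.

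**Figure D4:**
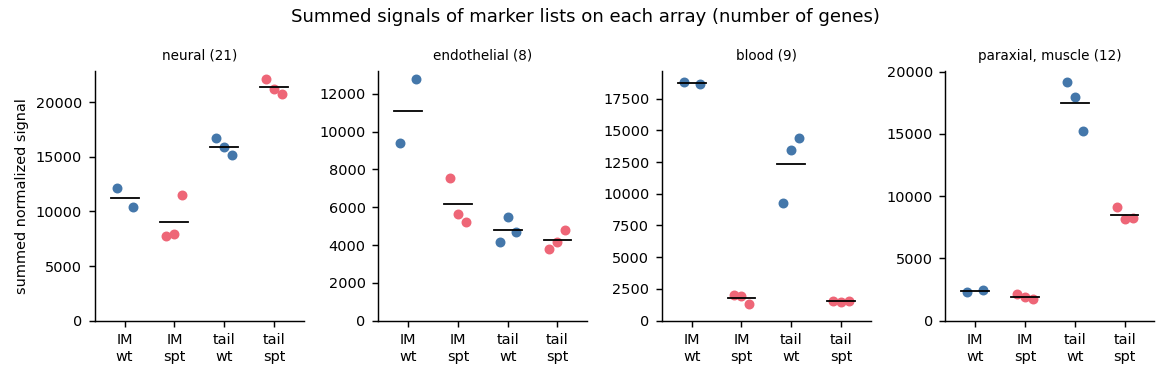
Summed normalized signals of 4 marker lists on each array (1 point per array, bar at the group mean, linear axes from 0, number of genes in the title of each panel), in intermediate mesoderm (IM) and tail of wild-type (wt) and spt embryos. In tail the neural sum is higher in spt, and the blood sum and the paraxial mesoderm and muscle sum are lower. In IM the blood sum of spt is at 1344 to 2034 against 18617 or more in wild type.

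Receptor probe sets had a lower mean in spt tail for 6 of 7, with a median of -0.21, and 2 of them had an unadjusted p under 0.05, both of notch2. The brightest notch2 probe set read 1275, 1376 and 1188 in wild type and 933, 1072 and 849 in spt, without overlap, with a log2 fold change of -0.43 (SE 0.14, adjusted p = 0.427). The third read 430.1, 736 and 630.1 in wild type and 319.9, 460.4 and 440.3 in spt, with 2 spt arrays above the lowest wild-type array, and gave -0.52 (SE 0.23, adjusted p = 0.666). The second read 399, 499.5 and 432 and 369, 401 and 358 and gave -0.22 (SE 0.15, adjusted p = 0.964). Unlike in intermediate mesoderm, the 3 probe sets of notch2 here had the same sign. notch1a (512, 647 and 750.2 in wild type, 495, 616 and 777 in spt) and notch3 (530.4, 639 and 828 in wild type, 482, 603 and 1018 in spt) overlapped, and notch1b had signals near the low limit, 142, 125 and 177 in wild type and 131, 122 and 171 in spt. The proteolysis genes, mib1 and rfng lay between -0.39 and 0.22, and of these 8 probe sets only psenen, a γ-secretase subunit, had groups that did not overlap (1257, 1367 and 1352 in wild type, 1461, 1450.3 and 1672 in spt, a change of 0.20 (SE 0.12, adjusted p = 0.924) on the log2 scale). her6, a hairy-related gene of presomitic mesoderm and brain, read 1637, 1833 and 1892 in wild type and 1362, 1594 and 1763 in spt and overlapped.

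The effect of spt on hey2 differed between the stages, and hey2 was the only one of the 40 probe sets for which this test passed. In tail, hey2 read 304, 323 and 250.4 in wild type and 319, 293 and 247 in spt. The genotypes overlapped, and the log2 fold change was -0.03 with a 95% confidence interval of -0.41 to 0.35. The difference between the stages was 2.98 (SE 0.32, adjusted p = 0.00344) on the log2 scale, from limma. This fit takes 1 spread for both stages, though the median standard error of all probe sets was 0.28 in intermediate mesoderm and 0.17 in tail. In the limma fit of intermediate mesoderm alone, hey2 had an adjusted p of 0.131. Wild type at that stage is represented only by the 2 arrays that were kept after the study excluded another with far lower red blood cell markers. Of all probe sets 0.484% passed the test of the difference between the stages. At an unadjusted p under 0.05 that test called 7 of 40, or 17.5%, beside 9.28% of all. For 3 of 40, or 7.5%, the genotypes did not overlap at either stage and stood in opposite orders, beside 1.34% of all probe sets. These were dla, jag1a and the brighter probe set of her8a, each lower in spt intermediate mesoderm and higher in spt tail. For 2 of 40, her9 and a her4.5 probe set, the genotypes did not overlap at either stage and stood in the same order (2.15% of all). The differences between the stages were 0.99 (SE 0.31, adjusted p = 0.282) for dla, 1.22 (SE 0.32, adjusted p = 0.189) for jag1a and 1.08 (SE 0.32, adjusted p = 0.243) for her8a, and none passed. For hey1 the difference was -1.26 (SE 0.41, adjusted p = 0.324). Stage, tissue, sorting and amplification differ together here and cannot be told apart.

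More Notch probe sets rose than fell from the sorted intermediate mesoderm to the tail, in both genotypes. For this comparison the 11 arrays were normalized together. In wild type limma called 25 of 40, or 62.5%, beside 46.1% of all probe sets, with 18 higher in tail (20.8% of all) and 7 lower (25.3%). In spt it called 26 of 40, or 65%, beside 48.5% of all, with 21 higher (21.9%) and 5 lower (26.6%). The median log2 fold change of the 40 was 0.66 in wild type and 0.68 in spt, beside -0.12 and -0.13 for all probe sets. Under the scaling of the deposited values the median of all probe sets was 0.41 and 0.42, and the Notch calls were 24 higher and 2 lower in wild type and 30 higher and 1 lower in spt. The share of all probe sets by direction was not computed under this scaling, nor for calls shared by both scalings. Under the deposited scaling the whole array moved upward as well, and after joint normalization it did not. The counts thus depend on the scaling and are not read as particular to the pathway. Of the 40, 18 were called higher in wild type and 21 in spt under both scalings, and the lower calls shared by both were hey2 and the dimmer probe set of her3 in wild type and the dimmer probe set of her8a in spt. Between the scalings, 6 probe sets in wild type and 4 in spt had values of different sign.

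**Figure D5:**
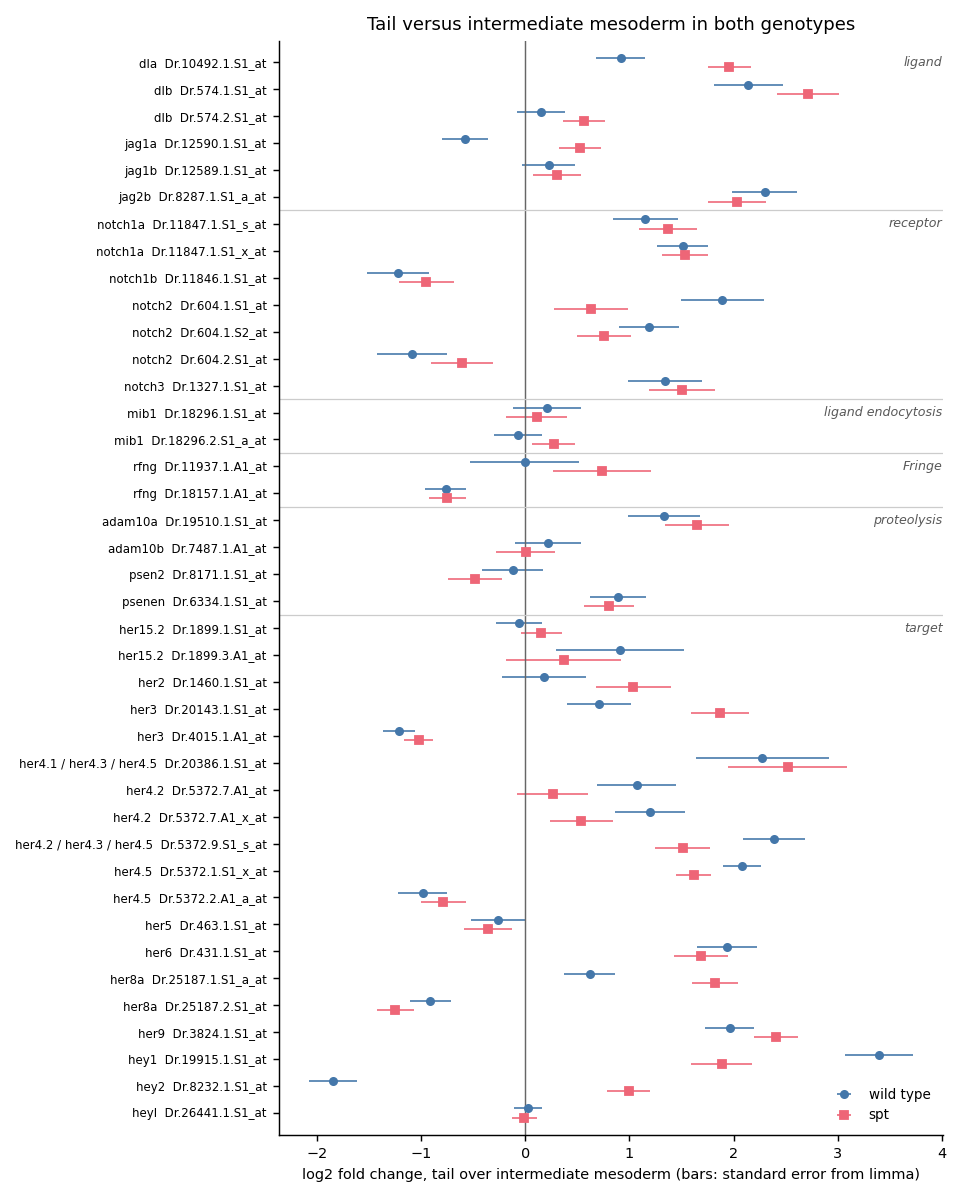
Log2 fold change of tail over intermediate mesoderm after joint normalization for the 40 Notch pathway probe sets, grouped by role, with circles for wild type, squares for spt and bars for the standard error from limma. Most points lie above 0, and hey2 lies at -1.84 in wild type and at 0.99 in spt. The label target marks all her and hey genes, by symbol only.

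Among the her and hey genes hey1 rose most, from 164 and 126 in wild-type intermediate mesoderm to 1597, 2171 and 1323 in wild-type tail, a log2 fold change of 3.39 (SE 0.33, adjusted p = 3.2e-05). In spt it rose from 144, 186 and 321 to 808, 808 and 795, by 1.89 (SE 0.29, adjusted p = 4.7e-04). Both genotypes changed the same way without overlap, and the spt tail signals were the lower ones. hey2 changed in opposite directions. In wild type it fell from 1039.6 and 747 to 244, 259 and 203, a log2 fold change of -1.84 (SE 0.23, adjusted p = 1.5e-04), and in spt it rose from 121, 120.3 and 83.5 to 255, 235 and 199.6, by 0.99 (SE 0.20, adjusted p = 0.00265). These directions held under the deposited scaling. her9 rose by 1.96 (SE 0.24, adjusted p = 1.3e-04) in wild type and 2.41 (SE 0.21, adjusted p = 1.4e-05) in spt, and her6 by 1.93 (SE 0.29, adjusted p = 4.4e-04) and 1.69 (SE 0.26, adjusted p = 4.2e-04). The probe set shared by her4.2, her4.3 and her4.5 rose in wild type from 27.7 and 28.9 to 303, 142 and 231, by 2.39 (SE 0.30, adjusted p = 1.6e-04). The one shared by her4.1, her4.3 and her4.5 rose from 74.3 and 8.73 to 281, 373 and 87.9, by 2.28 (SE 0.64, adjusted p = 0.0145), with the lowest tail array only slightly above the highest array of intermediate mesoderm. Besides hey2, the lower calls in wild type included probe sets of 3 her genes that are the dimmer ones in tail. The dimmer her3 probe set fell from 273 and 253 to 106, 90.8 and 118 in wild type, the dimmer her4.5 probe set from 78.4 and 123 to 42.3, 45.3 and 38.2, and the dimmer her8a probe set was under 100 on all these arrays.

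Ligands and receptors were called as well. On its main probe set the Delta gene dlb rose in wild type from 99.4 and 66.2 to 484, 547 and 267, a log2 fold change of 2.14 (SE 0.33, adjusted p = 5.3e-04), and in spt by 2.71 (SE 0.29, adjusted p = 4.8e-05). The other dlb probe set was not called in wild type (0.15, adjusted p = 0.613) and gave 0.56 (adjusted p = 0.042) in spt. jag2b, a Jagged ligand, rose in wild type from 169.9 and 168 to 731, 841 and 1161, by 2.30 (SE 0.31, adjusted p = 2.5e-04), and in spt by 2.03 (SE 0.28, adjusted p = 2.2e-04). Neither jag2b nor the main dlb probe set overlapped between the tissues in either genotype. dla rose by 0.92 (SE 0.23, adjusted p = 0.00917) in wild type and 1.96 (SE 0.21, adjusted p = 4.4e-05) in spt. All 7 receptor probe sets were called in wild type, 5 of them higher and 2 lower in tail. notch1a rose by 1.51 (SE 0.25, adjusted p = 7.8e-04) on the more changed of its probe sets and notch3 by 1.34 (SE 0.35, adjusted p = 0.0105). notch1b fell from 286 and 325 to 118, 105 and 146, a log2 fold change of -1.22 (SE 0.30, adjusted p = 0.007). Under the deposited scaling the adjusted p of notch1b was 0.193, so that its call rests on the joint normalization. For notch2, 2 probe sets rose (1.89 and 1.19) and 1 fell, from 772 and 782 to 321, 407 and 349 (-1.09, adjusted p = 0.0221 from limma and 0.329 under the deposited scaling). Of the proteolysis genes adam10a rose by 1.33 (SE 0.35, adjusted p = 0.00992) and psenen by 0.89 (SE 0.27, adjusted p = 0.0203) in wild type, and both rose in spt, while psen2 and adam10b were not called in either genotype. Neural, paraxial mesoderm and other cell types differ between the tissues too. At the adjusted threshold 8 of 21 neural genes were higher and 2 lower in wild-type tail. Of 12 paraxial mesoderm and muscle genes 10 were higher and 0 lower. Their part in the Notch values was not tested.

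Several genes had more than 1 probe set, and these did not always give the same sign. Of 10 such genes, the signs matched for 4 in the spt comparison of intermediate mesoderm, for 9 in that of tail, for 4 between the wild-type tissues and for 5 between the spt tissues. The genes whose probe sets differed between the wild-type tissues were her15.2, her3, her4.5, her8a, mib1 and notch2. On GRCz12tu her15.1 and her15.2 lie next to each other beside her2, and 1 probe set is annotated to her15.2 under 2 gene identifiers, so the values of these neighbouring copies are uncertain, as are those of her4. her5 lies next to her11 there.

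Of 56 other genes of the pathway on a fixed list, 26 had a probe set. In intermediate mesoderm 12 were higher and 14 lower in spt and 0 passed, with 1 at an unadjusted p under 0.05. In tail 10 were higher and 16 lower and 1 passed. This was the clock gene her1, which fell from 902, 974 and 681 to 325, 405 and 335, a log2 fold change of -1.22 (limma adjusted p = 0.019). The clock gene her7 had -0.92 (adjusted p = 0.073) and the Delta gene dlc of presomitic mesoderm -0.97 (adjusted p = 0.098), both without overlap. The medians over the 26 were -0.01 in intermediate mesoderm and -0.05 in tail, beside -0.01 and 0.00 for all probe sets.

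The 4 probe sets that matched by the start of their symbol only are not of the Notch pathway. jagn1b encodes a Jagunal protein of the endoplasmic reticulum, and mibp and mibp2 are muscle integrin binding proteins. None passed in either spt comparison. mibp2 had signals of 5119.6 and 4957 in wild-type and 3310.4, 3924 and 2091 in spt intermediate mesoderm and gave -0.74 (SE 0.31, adjusted p = 0.688), and mibp gave -1.05 (SE 0.48, adjusted p = 0.688). In both, all spt arrays were lower than the wild-type arrays. In tail mibp2 read 4484, 3893 and 4373 in wild type and 3961, 3479.7 and 3602 in spt, a log2 fold change of -0.21 (SE 0.09, adjusted p = 0.706). One jagn1b probe set rose between the wild-type tissues after joint normalization, from 5.55 and 6.96 in intermediate mesoderm to 249, 132 and 212 in tail, and the other gave 1.01 (SE 0.41, adjusted p = 0.069).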

How the data were processed

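The authors acquired and quantified the Affymetrix images with MAS5 5.0 and deposited intensity values, 1 per probe set and array, already scaled between arrays. How they were scaled is not given in the sources used here. A wild-type array that the study excluded from its analyses was not analysed here. Genotype, stage and replicate came from the sample labels. The table holds 15617 probe sets, of which 115 are controls and were not tested. The platform annotation gave 10796 of the rest 1 symbol, 134 several and 4572 none.

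Quantile normalization was done per stage. limma 3.58.1 in R 4.3.3 (lmFit, eBayes with a variance trend) was run on log2(signal + 16). P-values were adjusted by Benjamini-Hochberg over 15502 probe sets at a threshold of 0.05. Folds are on the log2(signal + 16) scale, which understates changes of dim probe sets. The difference between the stages was an interaction term in a fit of all 11 arrays, and tissues were compared after joint quantile normalization of the 11 arrays. P-values measure the spread between arrays of separate clutches, and the number of arrays limits the precision. The limma step was run on simulated data with independent normal noise and changes planted only in brighter probe sets. That run does not cover dim probe sets or noise shared between probe sets. Figures were drawn in Python 3.11.15 with numpy 2.4.6, pandas 2.3.3 and matplotlib 3.10.9.

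Values on every array are given for probe sets that passed an spt comparison or the difference between the stages, for the 8 with the smallest p in each spt comparison, for up to 6 in each direction with the largest change between the wild-type tissues without overlap, and for the brightest probe set of each receptor, each ligand and each her4 probe set. Other probe sets with printed signals (her2, her6, rfng, psenen and her15.2) were chosen after their values were seen. No fold was read where all arrays of both groups were under 100. The members, the list of other pathway genes and the marker lists were chosen with earlier results of these data known. A gene of a list was read by its brightest probe set. A planned search of promoters for the RBPJ site was not run, because no promoter sequences were used here.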

Additional observations from a re-analysis of the deposited data

Results flagged for a closer look

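The effect of spt on hey2 differed between the 4/5-somite intermediate mesoderm and the 21-somite tail by 2.98 on the log2 scale (SE 0.32, adjusted p = 0.0034 from limma), and the test of this difference itself is why it is listed here. Over the alternatives it lay between 2.49 and 3.32, with adjusted p-values between 0.0021 and 0.0227. All of these used only the wild-type arrays of intermediate mesoderm that were kept after the exclusion by the study.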

How the results depend on the processing

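Probe sets were counted over all 44 matched by symbol. The count for spt against wild type in intermediate mesoderm went from 0 to 1 (hey2, lower) with all 4 groups in 1 fit, where 338 of all probe sets passed against 0, and to 6 (4 higher, 2 lower) at the study's threshold for candidate genes, which takes unadjusted p-values and a minimum fold, where 957 of all 15502 probe sets passed. In tail it went from 0 to 8 (5 higher, 3 lower) at the threshold of the study for that stage, where 1105 of all passed. Only the cut-offs were taken from the study and applied to the limma p-values given here. The study used dCHIP and GeneSpring with invariant set normalization, so these counts are not those of its own gene lists. Over all probe sets the tail count of 107 became 62 in the fit of 4 groups, 62 without tail wild-type replicate 2, 56 without tail spt replicate 5 and 63 without tail spt replicate 6. Between the spt tissues a fit of those 2 groups alone gave 28 (7124 over all probe sets), against 29 (7518) in the fit of 4 groups, and 18 (15 higher, 3 lower) with the replicate number as a block (3822). Between the wild-type tissues these counts were 26 (6965) in the fit of 2 groups and 19 (4795) with the block. The cause was not tested. Arrays with the same number correlated at 0.0033 to 0.044 in their deviations from the group means. With so few arrays per group, this check cannot tell whether they share more than a number. In the labels the numbers run on from wild type to spt within each stage. The block thus follows an array number and not a stated pairing. No paired analysis was run within a stage, because the labels give the genotypes no shared replicate number. Whether wild-type and spt arrays of a stage pair by their order was not tested. In tail, krt4 kept that order (4941, 8901 and 6530 in wild type, 5643, 10037 and 7605 in spt). The Delta gene dld did not (1343, 2162 and 1780, and 978, 1613 and 1715). The p-values and the statements on overlap take no pairing into account. Leaving out 1 array at a time gave 0 to 0 in intermediate mesoderm and 0 to 0 in tail, 1 to 1 for the difference between the stages (17 to 435 over all probe sets, against 75), 18 to 24 between the wild-type tissues and 24 to 30 between the spt tissues. With the deposited scaling these last counts were 29 (27 higher, 2 lower) and 34 (33 higher, 1 lower), against 26 (19 and 7) and 29 (24 and 5), where 7322 and 7814 of all passed, against 7150 and 7518, and 6 Notch probe sets in wild type and 4 in spt changed sign between these scalings. Differences between genotypes were recomputed on 1 probe set per gene. In intermediate mesoderm these were hey2, dla, jag1a, the brighter of her8a and the probe set shared by her4.2, her4.3 and her4.5, which was under 100 on every array there. In tail they were hey1, her9, dla, jag1a, the brighter ones of her8a and her3 and the brightest of notch2. All of these kept their direction, as did the differences of hey1 in wild type and hey2 in both genotypes between the tissues. With a filter on signals of at least 100, hey2 and the probe set shared by her4.2, her4.3 and her4.5 left the fit of intermediate mesoderm. The her4 values there rest on low signals, since only the her4.2 probe sets reached 100 and only in spt.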
